A study of Mus musculus with 4 samples.

Results

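The mouse osteocalcin genes Bglap, Bglap2 and Bglap3 were chosen by symbol, and they were 3 of the 28006 features in the deposited matrices. They were followed in single-cell RNA-seq of cells sorted for tdTomato from femurs of Cxcl12-iCreER; R26R(tdTomato/+) mice, in which tamoxifen turns on the red fluorescent protein in marrow stromal cells that use the Cxcl12 transgene. The age of the mice is not given in the labels. All mice received tamoxifen 7 days before marrow ablation, and cells were taken 7 days after it. Ablated femurs (ABL) and, per the study, the untouched contralateral femurs (CONT) gave 2 libraries each, called CONT1, CONT2, ABL1 and ABL2 after femur and replicate. Replicate 1 was made with version 2 and replicate 2 with version 3 of the Chromium 3′ chemistry, so that replicate and chemistry cannot be told apart. Replicate 1 was pooled from several mice. Cells were grouped by clustering without the 3 genes and named after marker lists, and "-like" stands after each such name.

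Osteocalcin is a small secreted protein of bone matrix that is made by mature osteoblasts. A vitamin K-dependent enzyme turns several of its glutamate residues into γ-carboxyglutamate, which binds calcium and hydroxyapatite, and the less carboxylated form is released into the blood. Bglap and Bglap2 are the bone-expressed genes of the mouse cluster, and Bglap3 is known as the osteocalcin-related gene with activity outside bone.

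The 3 genes lie side by side on the minus strand of chromosome 3 (GRCm38, GENCODE M21), Bglap at chr3:88383501-88384464, Bglap2 at chr3:88377736-88378699 and Bglap3 at chr3:88368616-88372743. Each has 4 exons and a coding sequence of 288 bases, or 95 codons before the stop. The coding sequences are printed because the separation of the genes in these counts rests on the few bases that differ. Capitals mark, in Bglap and Bglap2, the 4 bases that differ between them and, in Bglap3, the 13 bases that differ from Bglap.
Bglap: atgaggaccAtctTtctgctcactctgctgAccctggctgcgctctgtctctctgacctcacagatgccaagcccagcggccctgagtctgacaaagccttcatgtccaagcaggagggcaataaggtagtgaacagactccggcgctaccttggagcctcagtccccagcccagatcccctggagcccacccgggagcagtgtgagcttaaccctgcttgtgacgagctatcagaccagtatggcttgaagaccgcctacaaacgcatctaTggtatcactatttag
Bglap2: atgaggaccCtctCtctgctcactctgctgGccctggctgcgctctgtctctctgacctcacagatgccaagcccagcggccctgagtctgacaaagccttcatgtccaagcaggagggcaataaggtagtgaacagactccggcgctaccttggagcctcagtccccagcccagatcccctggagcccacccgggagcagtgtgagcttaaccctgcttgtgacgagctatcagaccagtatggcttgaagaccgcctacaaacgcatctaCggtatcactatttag
Bglap3: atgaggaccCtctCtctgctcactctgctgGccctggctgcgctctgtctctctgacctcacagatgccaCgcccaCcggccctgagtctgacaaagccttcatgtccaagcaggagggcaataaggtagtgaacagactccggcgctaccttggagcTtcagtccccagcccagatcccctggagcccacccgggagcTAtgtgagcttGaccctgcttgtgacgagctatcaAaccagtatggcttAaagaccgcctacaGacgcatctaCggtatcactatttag
Over the coding sequence Bglap and Bglap2 were 98.6% identical, Bglap and Bglap3 95.5%, and Bglap2 and Bglap3 96.9%. The 134 bases of the 3′ UTR were the same in Bglap and Bglap2, and Bglap3 differed from both at 2 positions. The last 149 bases of the Bglap and Bglap2 transcripts were identical, and their last 300 bases differed at 1 position. Bglap3 shared the last 78 bases with both, and differed within the last 300 bases at 10 positions from Bglap and at 9 from Bglap2. Since reads of this chemistry come from the 3′ end, the split of UMIs (unique molecular identifiers that count captured molecules) between Bglap and Bglap2 depends on reads that cover few positions, and reads that fit both genes are left out by a counter that uses unique matches.

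Upstream of Bglap, RefSeq (GRCm38.p6) gives the following 250 bases at chr3:88384467-88384716 on the minus strand. They are shown because the 3 genes were high in the same class and Runx2 and Sp7, known regulators of osteoblast genes, were measured beside them. Capitals mark the Runx core ACCACA, 132 bases before the start, and the TATA sequence TATAAA, 27 bases before it.
Bglap promoter: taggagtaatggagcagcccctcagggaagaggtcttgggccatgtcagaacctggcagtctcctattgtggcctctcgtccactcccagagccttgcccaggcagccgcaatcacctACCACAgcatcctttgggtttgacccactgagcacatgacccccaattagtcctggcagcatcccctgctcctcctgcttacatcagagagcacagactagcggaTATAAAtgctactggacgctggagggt
On either strand ACCACA stood in 14.0% and TATAAA in 12.4% of 32851 mouse promoters of this table. The E-box CANNTG had 1 match in the Bglap window and stood in 66.2% of promoters, and AGGTCA, found in 14.0%, had 0. The windows listed for Bglap3 held neither ACCACA nor TATAAA. Bglap2 was not in the table. A match describes these letters only.

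The 4 libraries held 22889380 to 44784072 UMIs in all, and 1459 to 3433 barcodes each were kept as cells, with medians of 5714 (CONT1), 7338 (ABL1), 12896 (CONT2) and 12283 UMIs (ABL2) per cell. Reticular-like cells, the Cxcl12-high stromal cells of the marrow, numbered 918 and 1964 in CONT and 313 and 341 in ABL. Osteoblast-like cells numbered 9 and 2 in CONT and 60 and 48 in ABL. Pre-osteoblast-like cells were named in replicate 1 alone, with 42 in CONT and 78 in ABL. The marker list of osteoblasts, which holds none of the 3 genes, summed to 35035 to 135178 CPM (the UMIs of a gene scaled to the UMI total of the class) in the osteoblast-like cells of the 4 libraries and to 5503 to 8700 CPM in the reticular-like cells. Col1a1 gave most of the sum in the osteoblast-like cells. The clusters were named with this list, so the sums describe the classes and do not check their names. Libraries of 1 replicate shared 5 barcodes in replicate 1 and 1 in replicate 2. Xist was detected in 49.8% and 81.4% of the mesenchymal cells of CONT1 and ABL1, and in 71.9% and 0.0553% of those of CONT2 and ABL2, so the libraries of replicate 2 did not hold mice of the same sex in the same proportions.

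The level of the 3 genes was highest in the osteoblast-like cells of every library. Bglap, the principal osteocalcin gene, reached 88026 CPM in CONT1, 55585 in ABL1, 56588 in CONT2 and 34241 in ABL2 (mean 58610 ± 22154, SD, n = 4 libraries). Bglap2 reached 41117, 26084, 28548 and 16036 CPM in the same order. Bglap3 reached 12439, 10380, 1480 and 788 CPM. The order Bglap, Bglap2, Bglap3 thus held in 4 of 4 libraries, whereas Bglap3 was far lower in both libraries of replicate 2 than in both of replicate 1. UMI counts of a 3′ assay do not grow with transcript length and need no length correction. The order of the genes has another limit, since reads that fit more than 1 of them can be lost, and Bglap shared 74.7% of its windows of 50 bases with Bglap2 and 20.5% with Bglap3. Among all features of the osteoblast-like cells Bglap ranked 1, 3, 2 and 4 in these libraries, and Bglap2 ranked 4, 5, 5 and 6. Bglap3 ranked 7 in both libraries of replicate 1 but 79 and 144 in CONT2 and ABL2. CONT2 held 2 osteoblast-like cells and CONT1 held 9, so that a fit of ABL against CONT within osteoblast-like cells was not made.

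**Figure D1:**
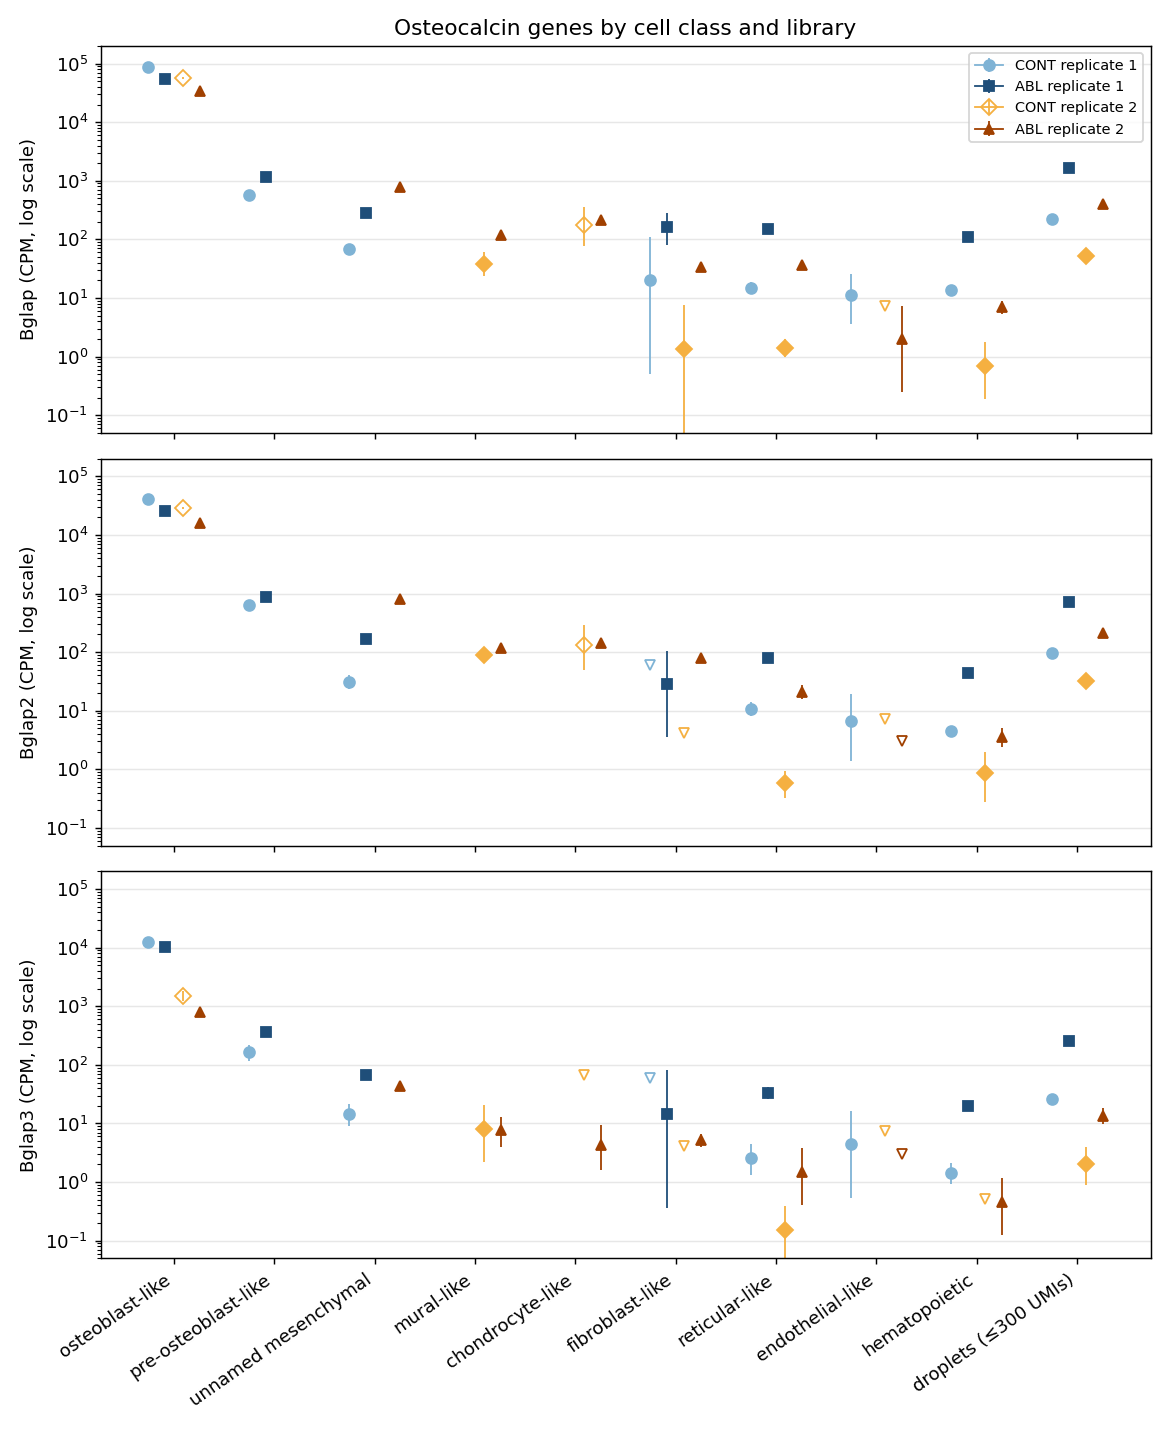
Level of Bglap, Bglap2 and Bglap3 (CPM, log scale) in each cell class and in droplets with at most 300 UMIs, by library; bars are exact 95% Poisson intervals (counting error only), open diamonds stand for classes of under 5 cells, and open downward triangles give the limit of 3 counts where no UMI was found. All 3 genes are highest in osteoblast-like cells in the 4 libraries, and Bglap3 is lower in replicate 2 than in replicate 1.

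Pre-osteoblast-like cells, whose leading genes included Wif1, Spp1 and Alpl, came next in replicate 1. Bglap was at 564 CPM in CONT and 1154 in ABL, Bglap2 at 644 and 866, and Bglap3 at 164 and 362. Apart from osteoblast-like cells, no mesenchymal class of these libraries was higher for any of the 3 genes. In the mesenchymal cells left without a name, Bglap was at 69.5 CPM in CONT1, 277 in ABL1 and 772 in ABL2. In CONT1 a single cell held 65 of the 116 Bglap UMIs of these cells. They were not 1 class. In replicate 1 they came from several clusters, some scored as reticular and others led by Rgs5 or by Col2a1 and its like. In ABL2 they were a single cluster. Mural-like cells had 38.7 (CONT) and 119 CPM (ABL) of Bglap in replicate 2, and the 73 chondrocyte-like cells of ABL2 had 210. In ABL2 a single mural-like cell held 97 of 203 Bglap UMIs, and the level without it was 62.3 CPM. A single chondrocyte-like cell held 116 of 289, and the level without it was 128 CPM. Reticular-like cells had 14.9 and 1.42 CPM of Bglap in CONT and 149.7 and 36.7 in ABL. Within each library the Bglap level of reticular-like cells was close to that of the fibroblast-like cells, which had 20.1 and 1.37 CPM in CONT (1 UMI each) and 160 and 33.5 in ABL. Endothelial-like cells had 11.2 CPM in CONT1 and 2.03 in ABL2, on 5 and 2 UMIs.

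Osteoblast-like cells were 0.262% and 0.0832% of all cells in CONT and 4.11% and 1.89% in ABL, yet they held most of the osteocalcin RNA. Their share of the Bglap UMIs in cells was 93.5% in CONT1, 93.7% in ABL1, 98.3% in CONT2 and 85.6% in ABL2 (mean 92.8% ± 5.28, SD, n = 4). For Bglap2 the shares were 91.7%, 92.6%, 96.6% and 71.4%, and for Bglap3 91.8%, 92.3%, 92.7% and 68.5%. ABL2 was the lowest library for each gene. In that library 359 unnamed mesenchymal cells, led by Fmod, Tnn and Wif1, were at 772 CPM of Bglap, 801 of Bglap2 and 43.7 of Bglap3. When all 4 libraries were integrated together, 77 cells of ABL2 were named osteoblast-like. Of these, 48 had that name in the main clustering, 27 were unnamed and 2 mural-like. Which cells of ABL2 count as osteoblast-like thus depended on the clustering.

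Osteoblast-like cells differed widely among themselves. In CONT1 Bglap made up from 0.520% to 12.5% of the UMIs of a cell, with a median of 11.02%. In ABL1 it made up from 0% to 16.7% with a median of 2.73%, and in ABL2 from 0% to 15.02% with a median of 1.15%. The 2 cells of CONT2 had 0.407% and 8.19%. The ranges of CONT and ABL cells overlapped in both replicates. With the 3 genes summed, the highest cell of each library gave 20.6% (CONT1), 26.6% (ABL1), 12.5% (CONT2) and 24.3% (ABL2) of its UMIs to osteocalcin. The 5 cells with the most Bglap held 86.5% of the Bglap UMIs of the class in CONT1, 33.6% in ABL1 and 50.6% in ABL2, and a single cell held 97.7% in CONT2. Cells are not replicates, and the class means above rest on few cells where the class is small.

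**Figure D2:**
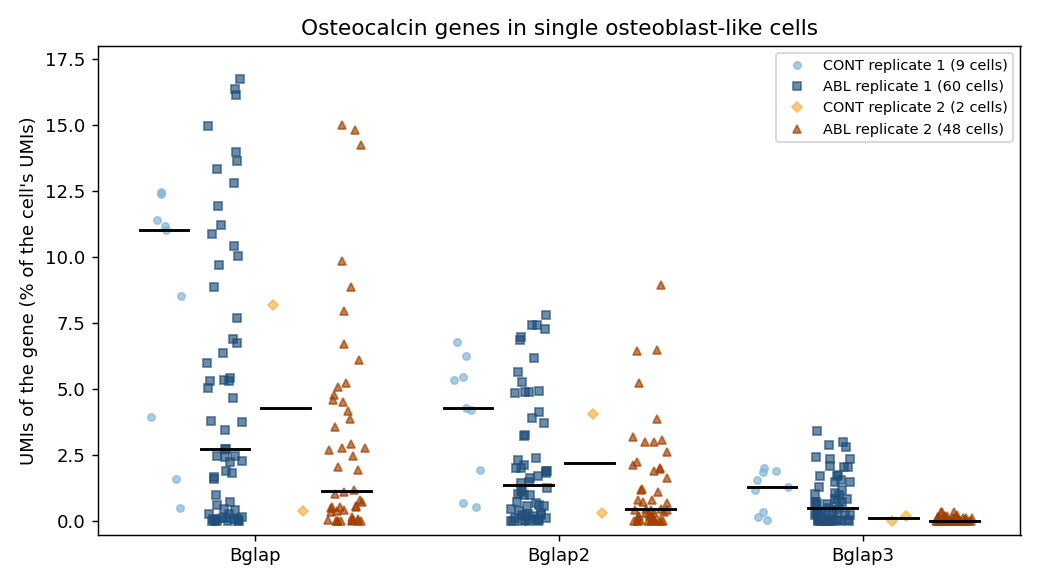
UMIs of Bglap, Bglap2 and Bglap3 as a percentage of the UMIs of each osteoblast-like cell, by library; each point is a cell and black lines are medians. Bglap runs from 0% to 16.7% in ABL1, and the median is 11.02% in the 9 cells of CONT1.

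The 3 genes were found together in most of these cells. All 3 were detected in 9 of 9 osteoblast-like cells of CONT1, 56 of 60 of ABL1, 2 of 2 of CONT2 and 38 of 48 of ABL2. Bglap had more UMIs than Bglap2 in 8, 52, 2 and 42 of these cells. Across the osteoblast-like cells of a library the logarithms of Bglap and Bglap2 correlated with r = 0.969 in ABL1 (60 cells) and 0.971 in ABL2 (48 cells), a description of cells of 1 library whose reads of the 2 genes overlap in sequence.

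Few cells outside the class had much osteocalcin. With a threshold of 1% of the UMIs of a cell for the 3 genes summed, which was set after the data were seen, 9 cells passed in CONT1, 47 in ABL1, 1 in CONT2 and 45 in ABL2. Osteoblast-like cells were 9, 43, 1 and 30 of these. The other cells of ABL2 were 14 unnamed mesenchymal cells and 1 mural-like cell. In ABL1 they were 2 pre-osteoblast-like cells, 1 unnamed mesenchymal cell and 1 reticular-like cell. No hematopoietic cell passed in any library.

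The make-up of the osteocalcin UMIs differed between replicates in its share of Bglap3. In osteoblast-like cells Bglap was 62.2%, 60.4%, 65.3% and 67.1% of the UMIs of the 3 genes in CONT1, ABL1, CONT2 and ABL2 (mean 63.7% ± 3.01, SD, n = 4). The ratio of Bglap to Bglap2 varied less and was 2.14, 2.13, 1.98 and 2.14. Bglap3 was 8.79% and 11.3% of the 3 genes in replicate 1 and 1.71% and 1.54% in replicate 2, a split that followed the replicate and not the femur. Chemistry and mice differ together between the replicates and cannot be told apart in the Bglap3 values.

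Mesenchymal cells that gave 0.1% to 1% of their UMIs to osteocalcin had a larger share of Bglap2 than cells that gave 5% or more. In pre-osteoblast-like cells Bglap was 41.1% of the 3 genes in CONT and 48.4% in ABL of replicate 1, below the 62.2% and 60.4% of the osteoblast-like cells of the same libraries. Mesenchymal cells with at least 1 UMI of the 3 genes were also placed in 4 bins by the share of their UMIs from these genes, with bins chosen after the data were seen. At 5% or more, Bglap was 68.2% of the Bglap and Bglap2 UMIs in both libraries of replicate 1, 66.8% in CONT2 and 67.2% in ABL2 (7, 29, 1 and 20 cells in CONT1, ABL1, CONT2 and ABL2). At 1% to 5% it was 67.3%, 67.1% and 63.3% in CONT1 (2 cells), ABL1 (18 cells) and ABL2 (25 cells). At 0.1% to 1% it was 52.5% in CONT1 (27 cells), 54.6% in ABL1 (89 cells), 51.6% in CONT2 (2 cells) and 47.7% in ABL2 (114 cells). The share was lower in the bin of 0.1% to 1% than in that of 5% or more in 4 of 4 libraries, and the exact 95% binomial intervals of the 2 bins did not overlap in any of them. Those intervals cover counting error and not the spread between cells. The bins were cut on UMIs that include Bglap and Bglap2, which is why no test of the trend was made.

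**Figure D3:**
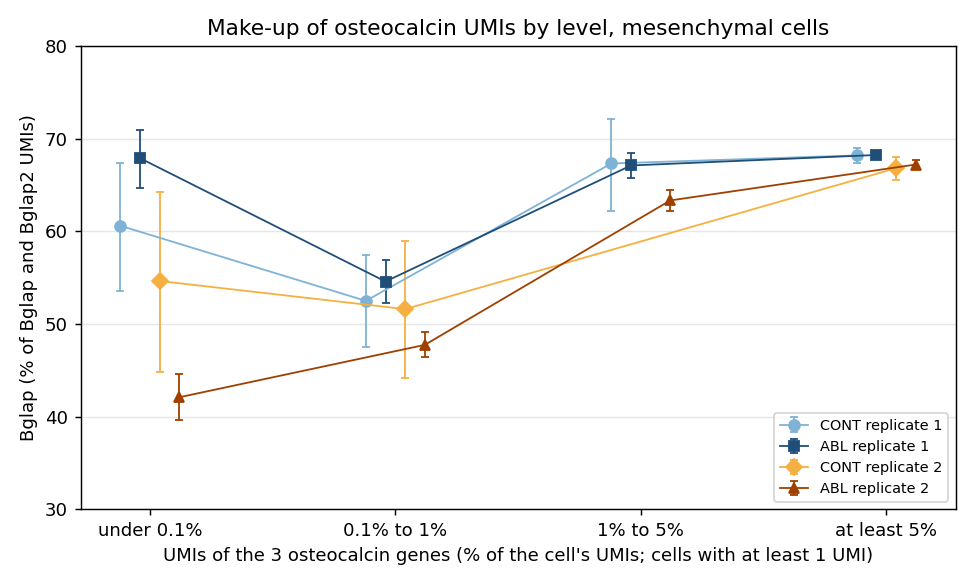
Bglap as a percentage of the Bglap and Bglap2 UMIs (vertical axis, from 30%) in mesenchymal cells grouped by the share of their UMIs from the 3 genes (horizontal axis), by library; bars are exact 95% binomial intervals. The share at 0.1% to 1% lies between 47.7% and 54.6%, and at 5% or more between 66.8% and 68.2%.

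Below 0.1% the libraries parted. Bglap was 60.6% and 67.9% of the Bglap and Bglap2 UMIs in CONT1 and ABL1, 54.6% in CONT2 and 42.1% in ABL2. These values lay below those of the cells at 5% or more in CONT1, CONT2 and ABL2, and differed little in ABL1 (67.9% against 68.2%). ABL2 held 776 fibroblast-like cells against 8 to 45 in the other libraries. With these left out, a step added after the data were seen, the value of ABL2 was 58.2% (exact 95% binomial interval 54.6% to 61.8%), and within them it was 28.2%. At 0.1% to 1% it was 49.5% without them. Among the 194 of them with either gene, 130 had more Bglap2 than Bglap. Over the whole class, these cells had 33.5 CPM of Bglap and 80.4 of Bglap2. The 359 unnamed mesenchymal cells of the library also had more Bglap2 than Bglap in 93 cells and the reverse in 76. Because the ends of both transcripts are identical, how reads were divided between Bglap and Bglap2 in these cells was not tested.

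Hematopoietic cells were taken as cells that do not make osteocalcin, and their osteocalcin UMIs as the background of free RNA. In hematopoietic cells Bglap was at 13.5 CPM in CONT1, 111 in ABL1, 0.687 in CONT2 and 7.02 in ABL2. Bglap2 was at 4.496, 44.7, 0.859 and 3.51 CPM, and Bglap3 at 1.43, 20.2, 0 and 0.453. The 0 stood for no UMI of 5820679 in CONT2, which allows up to 0.515 CPM by counting error. In droplets with at most 300 UMIs, which hold mostly free RNA, Bglap was at 219, 1672, 52.5 and 409 CPM, Bglap2 at 95.5, 706, 32.3 and 210, and Bglap3 at 26.7, 259, 2.05 and 13.4. In each replicate the droplets and the hematopoietic cells of ABL were above those of CONT for the 3 genes.

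The share of reticular-like cells with a Bglap UMI lay close to this background, whereas that for Bglap2 was above it in 3 of 4 libraries. With every cell thinned to 2000 UMIs, which left out no cell of these classes, a Bglap UMI was found in 3.16% of reticular-like and 2.93% of hematopoietic cells of CONT1, and in 25.6% and 24.5% of those of ABL1. In replicate 2 the shares were 0.204% and 0.307% in CONT, and 2.64% and 2.12% in ABL. A Bglap2 UMI was found in 2.18% of reticular-like and 0.732% of hematopoietic cells of CONT1, in 15.3% and 10.6% of those of ABL1, in 0.102% and 0.307% in CONT2, and in 2.35% and 0.489% in ABL2. The exact 95% intervals of the 2 classes did not overlap in CONT1 and overlapped in the other 3 libraries. By level, Bglap was higher in reticular-like than in hematopoietic cells in ABL1 (149.7 against 111 CPM) and ABL2 (36.7 against 7.02), with Poisson intervals apart. The intervals overlapped in CONT1 (14.9 against 13.5 CPM) and CONT2 (1.42 against 0.687). Bglap2 was higher in reticular-like cells in CONT1 (10.8 against 4.496 CPM), ABL1 (78.1 against 44.7) and ABL2 (20.9 against 3.51). In CONT2 it was lower (0.576 against 0.859). Unthinned, the Bglap shares were 6.64%, 56.2%, 1.83% and 8.21% in reticular-like and 10.6%, 62.7%, 1.23% and 5.22% in hematopoietic cells of CONT1, ABL1, CONT2 and ABL2, with median depths of 4575, 6564, 12738 and 7492 UMIs in the former and 7201, 8222, 14600 and 11104 in the latter. Osteoblast-like cells at the same thinned depth gave 100%, 95%, 100% and 81.2%. A share at or below that of hematopoietic cells is read here as background. Among the thinned Bglap and Bglap2 shares of reticular-like cells, only those of CONT2 met this reading. They rest on 4 and 2 of 1964 reticular-like cells, against 1 of 326 hematopoietic cells for each gene. Unthinned, the Bglap share of CONT2 lay above that of hematopoietic cells (1.83% against 1.23%). For Bglap3 the thinned shares of CONT2 were 0.0509%, on 1 reticular-like cell, and 0%. The exact 95% intervals of the thinned Bglap shares of the 2 classes overlapped in every library.

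A second estimate used the share of free RNA in the reticular-like cells, taken from genes of other cell types, which was 8.86%, 9.25%, 0.889% and 11.4% in CONT1, ABL1, CONT2 and ABL2. Multiplied by the droplet levels it gave 19.4, 155, 0.467 and 46.6 CPM of Bglap. The measured level was 0.767, 0.968, 3.05 and 0.787 times this value. CONT2 alone lay above it, on 37 UMIs in 1964 cells. For Bglap2 the measured level was 1.28, 1.20, 2.01 and 0.873 times its own estimate in CONT1, ABL1, CONT2 and ABL2. Without the cell of ABL1 with the most Bglap2, the level there was 63.1 CPM, below the estimate of 65.3. In hematopoietic cells the estimate, made from stromal genes, was too high, since the measured Bglap was 0.286, 0.403, 0.101 and 0.0671 times it, and it is therefore only rough. In pre-osteoblast-like cells the measured Bglap was 30.4 (CONT) and 10.6 (ABL) times the free RNA estimate, and in osteoblast-like cells at least 563 times in every library.

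**Figure D4:**
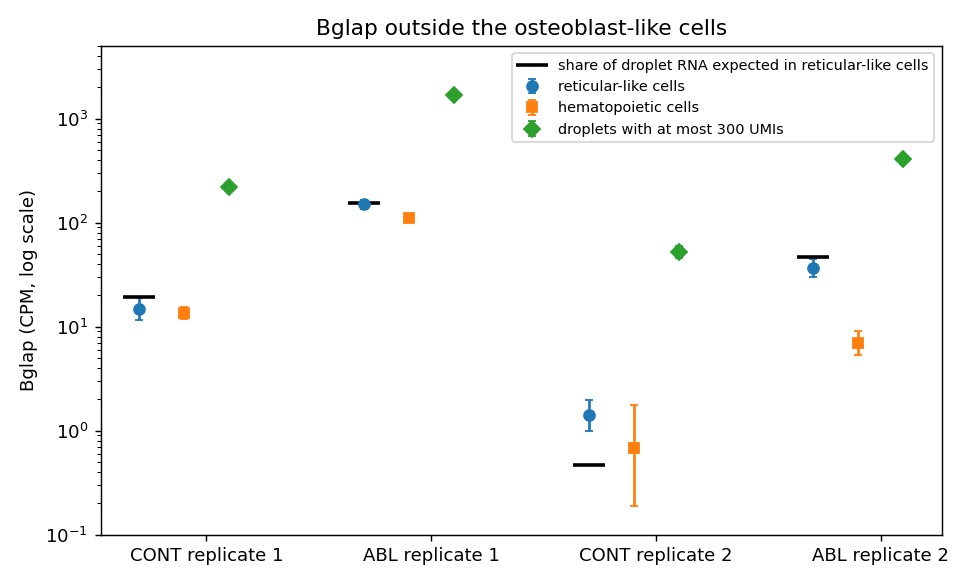
Bglap (CPM, log scale) in reticular-like cells, hematopoietic cells and droplets with at most 300 UMIs in each library, with exact 95% Poisson intervals, and the level that the estimated share of free RNA would give in reticular-like cells (black lines). Reticular-like cells lie at or under the line in 3 libraries and above it in CONT2.

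The study's question for these libraries was how marked stromal cells respond to marrow ablation. In reticular-like cells Bglap rose in both replicates, with 149.7 CPM in ABL1 against 14.9 in CONT1 and 36.7 in ABL2 against 1.42 in CONT2, and Bglap2 rose from 10.8 to 78.1 and from 0.576 to 20.9. Both ABL libraries were above both CONT libraries for each gene. In replicate 2, Xist was detected in 71.9% of the mesenchymal cells of CONT2 and in 0.0553% of those of ABL2. Ablation and the sex of the mice therefore cannot be told apart in replicate 2, here and in the other comparisons of ABL with CONT. Summed counts per library were fitted across all genes with edgeR's quasi-likelihood test and the replicate as a block. The log2 fold change was 3.81 for Bglap (SE 0.27, adjusted p = 4.06e-40) and 3.64 for Bglap2 (SE 0.31, adjusted p = 2.94e-29). Of 11060 genes tested, 2.31% were called higher and 2.10% lower in ABL (4.40% in all), and both tested members were among those higher. Bglap3, at 2.59 and 0.154 CPM in CONT and 33.6 and 1.47 in ABL, had too few counts and was not tested. The same libraries showed the rise of free osteocalcin RNA given above. The Bglap levels of reticular-like cells were at or near the free RNA estimate in all but CONT2, and their Bglap2 levels were above it in all but ABL2. In ABL1 a single cell held 35 of the 181 Bglap2 UMIs, and without it the level was 63.1 CPM, below the estimate of 65.3. In CONT1 the Poisson interval of Bglap2 (8.01 to 14.2 CPM) held the estimate of 8.46, and the CONT2 value rested on 15 UMIs. A single cell held 48 of the 100 Bglap UMIs of ABL2, and without it the level was 19.2 CPM. The Bglap call was lost without the block (3.48, edgeR) and when either CONT library was left out together with the block (5.87 without CONT1, 2.52 without CONT2). The Bglap2 call was lost without the block (3.15) and without CONT1 (6.24), CONT2 (2.07) or ABL1 (1.93). With doublets removed the changes were 3.01 for Bglap and 2.67 for Bglap2, both still called, and after subtraction of free RNA neither gene had counts enough for a value. The log2 ratios within replicates 1 and 2 were 3.16 and 4.43 for Bglap and 2.68 and 4.67 for Bglap2. The fit has 1 residual degree of freedom, so its p-values rest largely on a spread estimated across genes. An exact two-sided permutation test of 2 libraries against 2 cannot go below p = 0.333.

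The same genes rose in hematopoietic cells. The log2 fold change (edgeR, replicate block) was 3.02 for Bglap (SE 0.46, adjusted p = 1.13e-08), 2.85 for Bglap2 (SE 0.49, adjusted p = 8.90e-07) and 3.76 for Bglap3 (SE 0.67, adjusted p = 3.12e-06). All 3 members were called higher, against 3.82% of the 11915 genes tested, with 2.68% called lower and 6.50% in all. The log2 ratios within replicates 1 and 2 were 2.94 and 2.86 for Bglap, 3.18 and 1.665 for Bglap2, and 3.59 and 1.49 for Bglap3. In replicate 2 Bglap3 had 4 UMIs in ABL against 0 in CONT, and Bglap2 had 31 against 5. ABL was above CONT for every gene within each replicate, yet CONT1 (13.5 CPM of Bglap) was above ABL2 (7.02), so the groups overlapped. A single cell held 19 of the 62 Bglap UMIs of ABL2, and the level without it was 4.87 CPM. The Bglap call was lost without the block (2.92) and without CONT1 (6.81) or CONT2 (2.01), and the sign turned without ABL1, to -0.60 for Bglap, -0.16 for Bglap2 and -1.33 for Bglap3.

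The change in reticular-like cells minus that in hematopoietic cells was tested in 1 model over 13078 genes. It was 0.93 on the log2 scale for Bglap (SE 0.91, adjusted p = 0.804), 0.64 for Bglap2 (SE 0.87, adjusted p = 0.856) and -0.13 for Bglap3 (SE 0.73, adjusted p = 0.976) by edgeR. No gene was called (0.00% of those tested), while 1220 had an unadjusted p under 0.05 and DESeq2 called 93. On simulated data this fit recovered 0 of 200 genes changed by 2 on the log2 scale, so its lack of calls carries little weight. A fit with the cell class by replicate, added after the data were seen, recovered 71 of 200 in simulation and called 183 genes here, and gave 0.42 for Bglap (SE 0.42, edgeR adjusted p = 0.783). A p that misses the threshold does not show that the changes were equal.

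Summed over all mesenchymal cells, Bglap was at 1306 CPM in CONT1, 6844 in ABL1, 144 in CONT2 and 1356 in ABL2. Bglap2 was at 627, 3263, 73.6 and 761 CPM and Bglap3 at 189, 1302, 3.99 and 38.9. ABL exceeded CONT within each replicate for all 3 genes. In such sums more cells of a type and more RNA per cell cannot be told apart, and the osteoblast-like cells rose in number from 9 to 60 and from 2 to 48 while their Bglap level was lower in ABL in each replicate. The log2 fold change was 2.99 for Bglap3 (SE 0.62, adjusted p = 0.0240), 2.84 for Bglap2 (SE 0.79, adjusted p = 0.0782) and 2.78 for Bglap (SE 0.91, adjusted p = 0.133) by edgeR with the replicate block. Bglap3 alone was called, where 1.81% of 13649 genes were called higher, 0.674% lower and 2.48% in all. The Bglap3 call was lost without the block (2.72), with free RNA subtracted (3.08) and when any library was left out together with the block (7.23 without CONT1, -1.20 without ABL1, 1.75 without CONT2, 3.68 without ABL2). Bglap2 was called with no TMM (edgeR adjusted p = 0.0406), with no filter on low counts (0.0355), with the cell filter of the study alone (0.0237; values from 2.84 to 2.97) and by DESeq2 (2.87, adjusted p = 3.27e-06). DESeq2 gave 2.81 for Bglap with an adjusted p of 3.51e-06.

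When all 4 libraries were integrated together, pre-osteoblast-like cells were named in each library, but in replicate 2 none of these cells had that name when the replicates were clustered apart. Of the 36 in CONT2, 27 had been mural-like and 9 reticular-like, and of the 62 in ABL2, 40 had been mural-like, 21 reticular-like and 1 unnamed. In replicate 1 the name held for 40 of 40 cells in CONT and 71 of 78 in ABL. The values of replicate 2 therefore describe a joined cluster and not a class found in both replicates. The Bglap level was 572 CPM in CONT1, 1150 in ABL1, 30.2 in CONT2 and 561 in ABL2. The CONT2 value rests on 15 UMIs in 5 of 36 cells. The log2 fold change, in a fit added after the data were seen, was 2.41 for Bglap (SE 0.65, edgeR adjusted p = 0.0177), 1.71 for Bglap2 (SE 0.62, adjusted p = 0.148) and 1.49 for Bglap3 (SE 0.53, adjusted p = 0.136). Bglap was called, where 0.832% of 6493 genes were called higher, 1.00% lower and 1.83% in all. The Bglap call was lost without the block (1.57), with DESeq2 (2.54), without ABL1 (1.03), without CONT2 (0.65) and without ABL2 (1.98). With pre-osteoblast-like and osteoblast-like cells joined (49, 133, 39 and 139 cells in CONT1, ABL1, CONT2 and ABL2), Bglap was at 24809, 30150, 6453 and 16695 CPM. There the log2 fold change was 1.00 (SE 1.503, edgeR adjusted p = 0.780), and none of the 3 members was called against 1.94% of 7954 genes called higher, 2.58% lower and 4.51% in all. Under this integration Bglap was 41.1%, 48.2%, 35.7% and 52.2% of the 3 genes in the cells named pre-osteoblast-like and 62.2%, 60.1%, 65.1% and 65.9% in osteoblast-like cells, in the same order of libraries.

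Genes that make or mineralize bone matrix were measured in the same cells, and not all of them followed osteocalcin. In osteoblast-like cells Col1a1, the main chain of type I collagen, was at 83987 CPM in CONT1, 102118 in ABL1, 31494 in CONT2 and 118544 in ABL2. Bglap was thus above Col1a1 in both CONT libraries and below it in both ABL libraries, with 1.05, 0.544, 1.80 and 0.289 Bglap UMIs for each Col1a1 UMI. The CONT values rest on 9 and 2 cells, and 1 cell held 97.7% of the Bglap UMIs of the class in CONT2. A difference between femurs in this ratio was not tested. Ifitm5, a membrane protein of mineralizing osteoblasts, was at 647, 699, 218 and 797 CPM, and Spp1, which encodes the matrix protein osteopontin, at 1252, 3990, 3309 and 2928. Spp1 was higher in the pre-osteoblast-like cells of replicate 1, at 4041 CPM in CONT1 and 18018 in ABL1. Alpl, the phosphatase of mineralizing cells, was at 983 and 1273 CPM there against 668 and 640 in osteoblast-like cells. Spp1 and Alpl are on the marker list that named the pre-osteoblast-like cells, so their higher level there describes the class and is no independent observation. Ibsp, the matrix protein bone sialoprotein, was at 4988, 7582, 1597 and 10560 CPM in osteoblast-like and at 3750, 2813, 7087 and 2338 in reticular-like cells of CONT1, ABL1, CONT2 and ABL2, so its level in CONT2 was higher in the reticular-like cells. In reticular-like cells, where 2.31% of all genes were called higher and 2.10% lower, 12 of 16 genes of this list were tested, 4 rose and 1 fell in ABL, with a median log2 fold change of 0.77 against -0.01 for all genes. Those that rose were Col1a1 (2.95), Spp1 (3.48), Alpl (2.48) and Omd (1.45), a keratan sulfate proteoglycan. Phex fell by 0.93 on the log2 scale. In hematopoietic cells (3.82% of all genes higher, 2.68% lower) 4 of 12 rose (Alpl, Col1a1, Col1a2 and Spp1) and 2 fell (Ibsp and Phex), and over all mesenchymal cells (1.81% higher, 0.674% lower) 5 of 14 rose (Alpl, Dmp1, Ifitm5, Omd and Smpd3). In the pre-osteoblast-like cells of the joint integration 3 of 13 tested genes of the list rose (0.832% of all genes), and in the difference between reticular-like and hematopoietic cells 0 of 14 were called (edgeR). Without the replicate block edgeR called 0 genes in each of the fits of 1 class, so that these counts and those of the other lists rest on the block.

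The regulators of osteocalcin transcription differed in level. Runx2, the factor that commits cells to the osteoblast fate, was at 104, 135, 247 and 116 CPM in the osteoblast-like cells of CONT1, ABL1, CONT2 and ABL2, and Sp7, which acts after it, at 157, 173, 87.1 and 151. Cebpb, a leucine zipper factor, was at 772, 564, 1524 and 327 CPM. Of the 12 regulators tested in reticular-like cells, Sp7 rose (2.66) and Vdr, the vitamin D receptor, fell by 0.87 on the log2 scale, with a median of -0.22. Over all mesenchymal cells Sp7 (2.09) and Dlx3 (4.44) rose among 13, with a median of -0.45, and in hematopoietic cells Rxra (1.39) rose among 11, also with a median of -0.45. Median values of all genes were -0.06 and -0.04 in these fits. Of all genes, 4.40%, 2.48% and 6.50% were called in the reticular-like, all mesenchymal and hematopoietic fits.

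The enzymes that carboxylate osteocalcin were measured in the same cells. Ggcx, the γ-glutamyl carboxylase, was at 41.7, 31.2, 14.5 and 43.7 CPM in osteoblast-like cells in the same order of libraries, and Vkorc1, which recycles vitamin K, at 240, 497, 218 and 394. Of the 8 genes of vitamin K use, propeptide cleavage and secretion, 0 were called in reticular-like cells (edgeR, replicate block, median log2 fold change 0.05). Over all mesenchymal cells 0 were called (median 0.18), and Nqo1 fell by 1.79 on the log2 scale in hematopoietic cells. Of all genes, 4.40%, 2.48% and 6.50% were called in these fits, so few or no calls among 8 genes say little about them.

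Other γ-carboxylated proteins had another distribution. Mgp, the matrix Gla protein of cartilage and vessel walls, was at 0, 58.1, 0 and 29.9 CPM in osteoblast-like cells, and Gas6, a ligand of receptor tyrosine kinases, at 93.9, 90.7, 14.5 and 0. With 9 and 2 such cells in CONT1 and CONT2, 3 UMIs stand for 31.3 and 43.5 CPM. A lower value or a 0 there does not show absence. Gas6 was at 2365, 2992, 1472 and 2272 CPM in reticular-like cells. Of this list, Mgp rose in reticular-like (1.88) and hematopoietic cells (1.82), and Ucma, a cartilage Gla protein, rose over all mesenchymal cells (3.88). The list had 4, 5 and 6 genes tested in these fits, where 2.31%, 3.82% and 1.81% of all genes were called higher. Of the 4 listed genes of osteocalcin reception and its phosphatase, 3 were in the files and none had counts enough for a test, and Gprc6a had no UMI in osteoblast-like cells.

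The genes that flank the cluster did not share its level. Pmf1, a neighbour of the cluster, was at 10.4, 15.6, 0 and 5.75 CPM in osteoblast-like cells. Of 9 neighbours tested in reticular-like and 10 in all mesenchymal cells, 0 were called by edgeR (medians 0.00 and -0.22), and Lmna (1.25), which encodes lamins A and C, rose among 9 in hematopoietic cells.

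The genes whose pattern was most like that of each member were found by Pearson's r of log2(CPM + 10) over 40 units, each a class in a library with at least 10 cells, among 7862 genes of at least 50 CPM in some unit. For Bglap these were Bglap2 (r = 0.975), Bglap3 (0.936), Cdo1 (0.895), a cysteine dioxygenase, Col24a1 (0.848), a fibrillar collagen, and Cpe (0.847), a carboxypeptidase. For Bglap2 they were Bglap (0.975), Bglap3 (0.931), Cdo1 (0.909), Cpe (0.892) and Sp7 (0.884). For Bglap3 they were Bglap (0.936), Bglap2 (0.931), Lpar3 (0.863), a lysophosphatidic acid receptor, Slc36a2 (0.857), an amino acid transporter, and Chn1 (0.852). The osteoblast-like cells of CONT1 (9) and CONT2 (2) were too few for a unit, so this class entered from ABL1 and ABL2 alone. Units of 1 library share its depth and free RNA, and the 3 members share sequence, so these values are a description.

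The transgene used for the sort was detected in many of these cells. At 1000 UMIs per cell a tdTomato UMI was found in 66.7%, 73.3%, 50% and 31.2% of the osteoblast-like cells of CONT1, ABL1, CONT2 and ABL2, in 83.2%, 73.2%, 60.1% and 64.8% of the reticular-like cells, and in 7.81%, 9.76%, 6.75% and 24.6% of hematopoietic cells. The study found tdTomato-positive cells without tamoxifen in some mice of this line, nearly all with blood or endothelial surface markers. The study also reported that clusters of these data without detectable tdTomato held myeloid cells, lymphocytes and erythroid cells. Whether the tdTomato UMIs of hematopoietic cells were their own or free RNA was not tested, so these cells are not a clean negative. In ABL2 the exact 95% interval of the osteoblast-like share, 18.7% to 46.3% of 48 cells, held the share of the hematopoietic cells, whereas in both libraries of replicate 1 the osteoblast-like interval lay above it.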

How the data were processed

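The deposited values are UMI counts per feature and barcode, which the authors made with Cell Ranger (3.0.0 per the file headers of the version 3 libraries) on mm10 with added transgene sequences, without calling cells and without normalization. Barcodes were kept as cells by the filter of the study, a minimum of 500 genes and a mitochondrial share up to 20% (version 2) or 1000 genes and 15% (version 3), which left 4809, 1768, 2478 and 2720 barcodes, and with a UMI total of at least the 99th percentile of the 3000 deepest barcodes divided by 10, which left 3433, 1459, 2404 and 2537 (CONT1, ABL1, CONT2, ABL2). Doublets were left in, and removing the highest Scrublet scores (0.8% of cells per 1000 cells) was an alternative. Cells were clustered with Seurat 5.3.0 (2000 variable genes, 30 components, resolution 0.8), mesenchymal cells within each replicate, leaving out 11 genes including the 3 members. Clusters were named from marker lists by a score and by their leading genes, with score limits set after the data were seen. The 3 members and the gene lists were chosen with earlier results of these data known. The genes named are the members, those of the fixed lists and, for each member, the 5 genes most correlated with it over the cell classes.

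Counts were summed per class and library and tested with the edgeR 4.0.16 quasi-likelihood test (TMM, filterByExpr, Benjamini-Hochberg adjustment over all genes tested, threshold 0.05, two-sided) in R 4.3.3, with the replicate as a block. The fits were tested on simulated data and recovered 167 (reticular-like), 165 (all mesenchymal), 183 (hematopoietic) and 0 (difference between classes) of 200 genes changed by 2 on the log2 scale. The simulated counts had the same spread for all genes and, apart from the changed genes, the same mean in CONT and ABL of a replicate. They do not give the recovery in the real data. The numbers in the labels were used as pairs because the study's methods give the contralateral femur as the internal control. The Xist shares of CONT2 and ABL2 (71.9% and 0.0553% of mesenchymal cells) differ too far for libraries that hold the same mice in like proportions. The pairing of replicate 2 is therefore not borne out, and its libraries may share no mice. Deviations from the group means correlated within replicates with 0.72 in reticular-like, 0.44 in all mesenchymal and 0.52 in hematopoietic cells. Since each replicate has its own chemistry, these values cannot show whether its libraries share mice. Each level, in CPM, has an exact 95% Poisson interval. The intervals of shares are Clopper-Pearson intervals at 95%, and both kinds cover counting error only. Free RNA was estimated from droplets with at most 300 UMIs. Libraries are separate samples per the labels. Residual degrees of freedom were few, so the p-values rest largely on a spread that edgeR and DESeq2 estimate across genes. They are not a measure of how well the 4 libraries agreed for a given gene. DESeq2 1.42.0, no TMM, no filter on low counts, no block, leaving out each library, thinning, subtraction of free RNA, removal of doublets, the filter of the study alone, joint integration and clustering without any marker gene were the alternatives. Sequences came from GENCODE M21 transcripts and RefSeq promoters.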

Additional observations from a re-analysis of the deposited data

How the results depend on the processing

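Settings were compared by the Bglap level, make-up and source in osteoblast-like cells, each as a mean over libraries. In every setting that gave a value, these means moved by less than the spread (SD) between libraries. Leaving out 1 of 4 libraries cannot move a mean that far, so those settings were no check. Single libraries did move. With joint integration Bglap was at 88026, 57362, 35534 and 23859 CPM in CONT1, ABL1, CONT2 and ABL2, against 88026, 55585, 56588 and 34241. Bglap2, Bglap3 and the other classes were not compared in this way. With the filter of the study alone no osteoblast-like cluster was named in replicate 2, and that setting had no value. Calls depended on the replicate block. Without the replicate block 0 genes were called in reticular-like, all mesenchymal, hematopoietic, pre-osteoblast-like and osteoblastic (pre-osteoblast-like and osteoblast-like) cells (main fits 487, 339, 774, 119 and 359; without the block 311, 1264, 845, 387 and 844 had an unadjusted p under 0.05 by edgeR), and the Bglap change was 3.48, 2.92 and 1.57 in reticular-like, hematopoietic and pre-osteoblast-like cells, no longer called. DESeq2 called 158, 653, 281, 18 and 83 genes in these 5 fits and 93 in the difference between classes, with Bglap at 2.81 (now called) in all mesenchymal and 2.54 (no longer called) in pre-osteoblast-like cells.

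Leaving out each library, with the block dropped in the fits of 1 class, gave 0 to 107 calls in reticular-like, 0 to 624 in all mesenchymal, 0 to 312 in hematopoietic, 1 to 64 in pre-osteoblast-like, 0 to 182 in osteoblastic cells and 0 to 276 in the difference. Bglap ranged from 2.20 to 5.87 in reticular-like, from -0.60 to 6.81 in hematopoietic and from 0.65 to 4.73 in pre-osteoblast-like cells, and from -0.14 to 2.25 in the difference, where it was -0.12 without CONT1 and -0.14 without ABL2. The other members turned sign without ABL1: Bglap3 ran from -1.20 to 7.23 in all mesenchymal, from -1.33 to 9.52 in hematopoietic, from -1.43 to 5.42 in pre-osteoblast-like and from -1.81 to 4.22 in osteoblastic cells (also -0.05 there without CONT2), and Bglap2 from -0.16 to 5.19 in hematopoietic cells. Where 1 library of a group was left, its spread is assumed to be that of the other group.

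In the difference, Bglap2 ran from -0.24 without ABL2 to 1.96 without ABL1 and was -0.26 with doublets removed, and Bglap3, at -0.13, was -3.26 without CONT1, 0.38 with no library block, 0.070 with DESeq2, 0.98 without ABL1, 0.01 without CONT2 and 0.39 with joint integration. Its calls were 9 with no TMM, 67 with no filter on low counts and 183 with the cell class by replicate. In all mesenchymal cells 670 genes were called with no TMM, 817 with no filter on low counts, 9 with free RNA subtracted and 791 with the filter of the study alone. In hematopoietic cells 202 were called with free RNA subtracted and 84 with doublets removed. After subtraction of free RNA the members fell under the count filter in reticular-like and hematopoietic cells and had no value. The causes were not tested.

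Library totals in place of TMM moved the median of all genes from -0.01 to 0.10 in reticular-like and from -0.04 to 0.06 in hematopoietic cells, less than the changes of the members. With 2 libraries a group and 2 to 60 osteoblast-like cells in each, a change of osteocalcin within this class was not tested, and UMI counts near 0 limit Bglap3 outside it.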
